A study of Mus musculus with 19 samples.

Results

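The Toll-like receptors Tlr1, Tlr2, Tlr3, Tlr4, Tlr5, Tlr6, Tlr7, Tlr9 and Tlr13 and the co-receptor gene Cd14 were followed by symbol through every library of a study of macrophages in the cochlea of the mouse, the snail-shaped part of the inner ear that serves hearing. All 10 genes were found among the 18639 in the deposited table, and all 10 were among the 18441 tested. Of them 5 encode receptors of the cell surface, 4 encode receptors of the endosome, and Cd14 encodes a surface co-receptor.

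Every mouse in the study, in every group, was a heterozygous CX3CR1 GFP knock-in (CX3CR1 GFP/+), in which green fluorescent protein (GFP) replaces a copy of the fractalkine receptor gene and marks macrophages. Cells were separated by fluorescence into GFP-positive macrophages and GFP-negative nonmacrophages, and each isolate came from 1 mouse. Whole cochleae of old mice, aged 12 to 14 months, gave 4 macrophage and 4 nonmacrophage libraries. Whole cochleae of young mice, aged 1.5 months, gave 2 macrophage libraries, 4 nonmacrophage libraries and 1 unsorted library, and from both the auditory nerve and the lateral wall of young mice came 1 library of each sort. A sort by 1 reporter can also collect other cells that switch on this promoter, and the GFP-negative cells are a mixture. The reads were deposited as counts divided by a library factor and are called normalized reads here.

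Toll-like receptors are membrane proteins that recognize molecules shared by many microbes. Those of the cell surface mostly bind lipids and proteins of bacteria, whereas those of the endosome bind nucleic acids taken up by the cell, and both kinds signal through adaptor proteins to the factors NF-kappa B and IRF. Macrophages are among the cells best known for using them, and CD14 hands bacterial lipopolysaccharide to the complex of TLR4 and the small protein encoded by Ly96.

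In mm10 the surface receptor genes Tlr1 and Tlr6 are neighbours on chromosome 5 (minus strand, 64924679 to 64933563 and 64952031 to 64960097). They encode the alternative partners of TLR2 for bacterial lipopeptides. Of the 50-base windows in the annotated exons of Tlr1, 15.4% also occurred in another gene, mostly in Tlr6, and of those of Tlr6 12.3% did so. Reads of such windows can be split between these genes, so their separate values are uncertain. Tlr2 lies on chromosome 3 (83836272 to 83841767), Tlr4 on chromosome 4 (66827584 to 66930284), Tlr5 on chromosome 1 (182954788 to 182976044), Tlr3 on chromosome 8 (45395665 to 45411080) and Tlr9 on chromosome 9 (106222598 to 106226883). Tlr7 (167304929 to 167330558) and Tlr13 (106143204 to 106160493) are on chromosome X. All are annotated as protein-coding.

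Upstream sequence was in the RefSeq table (GRCm38.p6) for 7 members, and Tlr4, Tlr7 and Cd14 had no entry. The letters GAGGAA, a core bound by PU.1 and other ETS factors that are central to macrophages, were searched on both strands of the 250 bases before each start. They occurred in 3 of the 7 members, Tlr1, Tlr9 and Tlr13, and in 23.3% of all 32851 such windows. These 3 are shown because they include Tlr1 and Tlr13, which differed between the sorts, and Tlr9, which did not pass the test. Each is given from 5′ to 3′ on the gene's strand up to the first annotated exon, with the match in capitals. The Tlr1 stretch is chr5:64933564-64933808 (minus), that of Tlr9 is chr9:106222348-106222597 (plus) and that of Tlr13 is chrX:106143025-106143203 (plus).
Tlr1: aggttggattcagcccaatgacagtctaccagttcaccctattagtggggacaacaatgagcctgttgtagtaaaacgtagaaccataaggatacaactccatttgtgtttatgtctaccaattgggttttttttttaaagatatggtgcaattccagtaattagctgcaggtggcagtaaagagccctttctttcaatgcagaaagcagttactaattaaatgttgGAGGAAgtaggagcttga
Tlr9: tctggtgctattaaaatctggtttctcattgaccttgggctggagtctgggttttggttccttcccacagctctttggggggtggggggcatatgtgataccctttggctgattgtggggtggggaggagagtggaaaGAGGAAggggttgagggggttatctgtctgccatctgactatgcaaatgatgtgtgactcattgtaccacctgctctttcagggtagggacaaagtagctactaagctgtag
Tlr13: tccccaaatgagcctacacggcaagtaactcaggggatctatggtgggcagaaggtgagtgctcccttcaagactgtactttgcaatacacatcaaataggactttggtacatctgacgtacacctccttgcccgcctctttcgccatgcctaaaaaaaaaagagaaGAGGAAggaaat
The matches began 23, 112 and 83 bases before the starts in the table. The AP-1 letters TGANTCA, searched in the same way, occurred in Tlr9 alone of the 7 (6.75% of all windows) and did not overlap its GAGGAA. A match describes the letters only.

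Reads in genes numbered 20.6 to 71.6 M (M, mega) a library. Old libraries had 50.6 to 71.6 M and sorted young whole-cochlea libraries 24.9 to 35.1 M, apart from young nonmacrophage replicate 14 with 60.2 M, so age and depth nearly coincide. A gene without reads could have had up to 3 reads, which is 1.38 to 5.33 normalized reads depending on the library. Young macrophage replicates 9 and 15 had reads in 11652 and 13532 genes, against 16750 to 17282 in old macrophages. The sort was checked with 17 macrophage core markers, of which 16 were higher in macrophages at each age, and Cx3cr1 stood at 9645, 9927, 8976 and 6383 normalized reads in old macrophages against 32, 26.8, 64 and 102 in old nonmacrophages. Markers of neurons were high in the macrophage sort as well, with 9 of 10 spiral ganglion neuron genes called higher at each age.

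**Figure D1:**
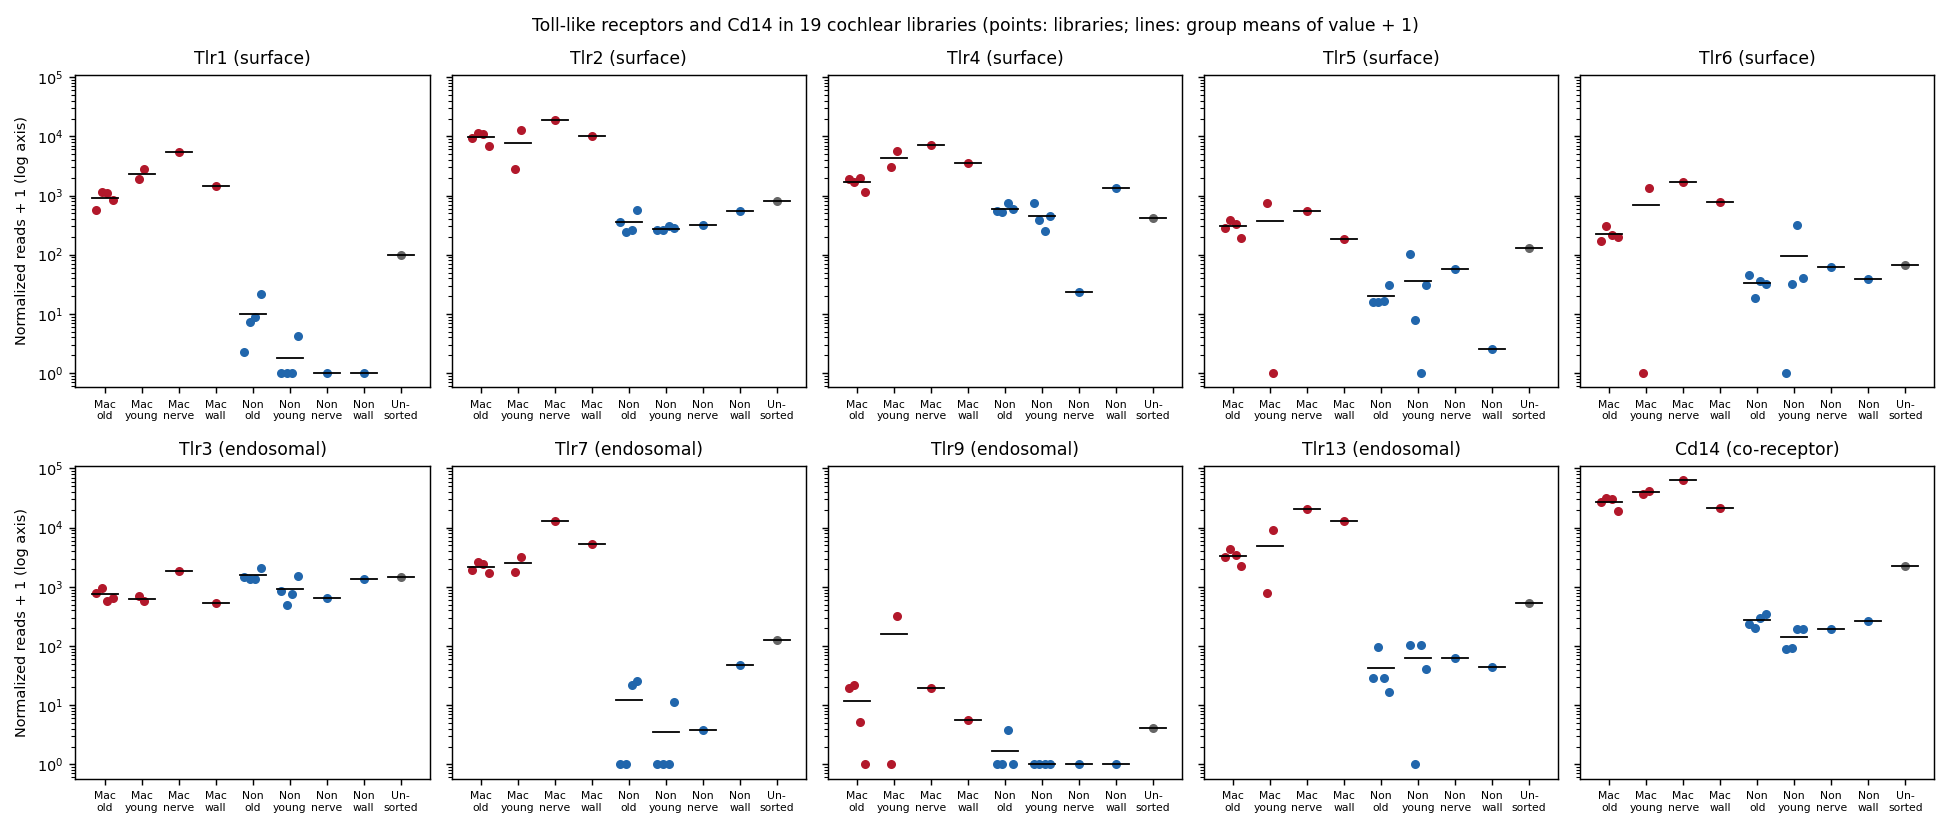
Normalized reads plus 1 on a log axis for each of the 10 genes, by group (Mac, GFP-positive; Non, GFP-negative; nerve and wall, young auditory nerve and lateral wall), with a point per library and a line at the group mean. Tlr1, Tlr2, Tlr7, Tlr13 and Cd14 separate the sorts in all libraries, whereas Tlr3 lies at 489 to 2047 in both sorts.

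The first comparison asked which of these genes distinguish macrophages from the other sorted cells of the old cochlea. In old mice 6 of the 10 genes were higher in macrophages (Tlr1, Tlr2, Tlr4, Tlr7, Tlr13 and Cd14) and Tlr3 was lower, by limma at an adjusted p of 0.05. Of all genes tested 9.25% were called higher and 9.36% lower (18.6% in all). The median log2 difference of the 10 genes was 4.38, against -0.19 over all genes. In young mice the same 6 genes were higher and none was lower, where 9.18% of all genes were called higher and 22.3% lower (31.5% in all), and the medians were 4.30 and -0.61. In RNA from sorted cells, fewer cells of a type and less RNA per cell cannot be told apart.

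Among the surface receptors, Tlr2, the shared partner for lipopeptides, was the highest per kilobase in macrophages. In old macrophages it stood at 9213, 11264, 10947 and 6889 normalized reads in replicates 1, 7, 12 and 17, and in old nonmacrophages at 352, 238, 264 and 559 in replicates 10, 11, 18 and 19. Every old macrophage library lay far above every old nonmacrophage library (log2 difference 4.81, SE 0.41, adjusted p = 9.69e-06, limma). The young macrophage replicates 9 and 15 held 2837 and 12702, and the young nonmacrophage replicates 2, 5, 6 and 14 held 258, 256, 303 and 278. The young groups did not overlap either (log2 difference 4.45, SE 0.50, adjusted p = 1.98e-05), although replicate 9 was well below replicate 15.

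Tlr1, which pairs with TLR2 for lipopeptides with more acyl chains, had close to no reads outside macrophages. Old macrophages held 570.3, 1148, 1084 and 833 and old nonmacrophages 1.23, 6.19, 7.79 and 20.8 normalized reads. Young macrophages held 1919 and 2775 and young nonmacrophages 0, 0, 0 and 3.21. Only replicate 14 of the young nonmacrophages, the deepest of them, had reads, and they were 6. The sorts differed by 6.88 (SE 0.77, adjusted p = 5.63e-05) in the old cochlea and by 10.65 (SE 0.94, adjusted p = 1.94e-06) in the young cochlea on the log2 scale by limma.

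Tlr4, the receptor for lipopolysaccharide, showed the smallest difference of the 6 genes at each age and was read in all 10 nonmacrophage libraries. Old macrophages held 1923, 1704, 1951 and 1140.1 and old nonmacrophages 557, 517, 752 and 583 normalized reads. The groups did not overlap, but their means were only 2.79 times apart (log2 difference 1.46, SE 0.35, adjusted p = 0.0114, limma). Young macrophages held 2998 and 5698 and young nonmacrophages 743, 381, 248 and 452, which do not overlap (log2 difference 3.29, SE 0.43, adjusted p = 7.44e-05). With the young auditory nerve and lateral wall libraries added to the young groups, the call in the old cochlea was lost (adjusted p = 0.314).

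Tlr5, the receptor for bacterial flagellin, and Tlr6, the partner of TLR2 for lipopeptides with fewer acyl chains, were low in macrophages and lower in nonmacrophages. In old mice Tlr5 stood at 281, 392, 335 and 191 in macrophages and 14.8, 15.1, 15.6 and 29.6 in nonmacrophages, and Tlr6 at 167, 306, 215 and 201 and 43.7, 17.2, 35 and 30.7 normalized reads. Neither gene's old groups overlapped, yet neither passed the test across the 4 groups (log2 difference 3.94, SE 1.72, adjusted p = 0.139 for Tlr5; log2 difference 2.81, SE 1.92, adjusted p = 0.371 for Tlr6). Each of the young macrophage libraries lacked one of these genes. Tlr5 held 735 and 0 normalized reads in young macrophage replicates 9 and 15, Tlr6 held 0 and 1357, and the spread this adds was shared by all groups in the fit. When only the 8 old libraries were fitted, both were called (adjusted p = 6.03e-06 and 6.23e-05), as were 24.9% of all genes in that direction. In the young cochlea neither was called (log2 difference 1.11, SE 2.11, adjusted p = 0.727 for Tlr5; log2 difference 0.55, SE 2.36, adjusted p = 0.901 for Tlr6), with young nonmacrophages at 103, 6.81, 0 and 29.4 for Tlr5 and 0, 31.3, 312 and 39 for Tlr6. Without replicate 15 the young log2 difference was 5.88 for Tlr5 and -4.66 for Tlr6. Without replicate 9 it was -3.65 for Tlr5 and 5.75 for Tlr6. The direction in young mice thus turned with the macrophage library left out.

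Cd14 was the highest of the 10 genes per kilobase in macrophages. Old macrophages held 27116, 31408, 29935 and 18829.5 and old nonmacrophages 231, 204, 298 and 353 normalized reads. Young macrophages held 36390.5 and 42272 and young nonmacrophages 87.1, 89.9, 189 and 191. The sorts stood apart at both ages, by 6.63 (SE 0.31, adjusted p = 1.58e-07) in old and 8.23 (SE 0.38, adjusted p = 1.83e-08) in young mice on the log2 scale by limma. It was the one member still called in the young cochlea with quality weights per group, a setting that called 0.163% of all genes higher.

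Among the endosomal receptors, Tlr7, which senses single-stranded RNA, and Tlr13, which senses bacterial ribosomal RNA, marked macrophages. Tlr7 held 1950.1, 2618, 2385 and 1736 normalized reads in old macrophages and 0, 0, 21.1 and 24.7 in old nonmacrophages. It held 1782 and 3185 in young macrophages and 0, 0, 0 and 10.2 in young nonmacrophages. The groups did not overlap at either age (log2 difference 8.78, SE 1.18, adjusted p = 0.000239 in old and log2 difference 10.35, SE 1.44, adjusted p = 0.000126 in young mice by limma), and 5 of the 8 nonmacrophage libraries had no reads of it.

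Tlr13 held 3173, 4360.4, 3434 and 2237 normalized reads in old macrophages and 28.3, 94.3, 27.2 and 15.9 in old nonmacrophages. It held 800.4 and 9167 in young macrophages and 101, 0, 101 and 40.6 in young nonmacrophages. The young macrophage replicates differed by more than 10-fold, and both lay above all nonmacrophages (log2 difference 6.56, SE 1.30, adjusted p = 0.00348 in old and log2 difference 6.72, SE 1.59, adjusted p = 0.00638 in young mice by limma). Fitting only the 6 young libraries ended the young call (adjusted p = 0.115), where 2.07% of all genes were called higher.

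Tlr3, which senses double-stranded RNA, was the one receptor lower in macrophages. Old macrophages held 794, 972, 572 and 648 and old nonmacrophages 1474, 1349, 1372 and 2047 normalized reads. All 4 old macrophage libraries lay below all 4 old nonmacrophage libraries, with a ratio of means of 0.478 (log2 difference -1.07, SE 0.34, adjusted p = 0.0443, limma). Leaving out any of the 8 old libraries ended the call (adjusted p = 0.0514 to 0.134), as did a common total (adjusted p = 0.0726), a fit without a trend (0.0561), pooling of the nerve and wall libraries (0.134) and edgeR's quasi-likelihood test, run on recovered reads (adjusted p = 0.0698), while the direction held in each. Young macrophages held 689.8 and 572 and young nonmacrophages 839, 489, 762 and 1545, groups that overlap (log2 difference -0.41, SE 0.42, adjusted p = 0.493).

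Tlr9, which senses unmethylated CpG DNA, was close to the counting limit in nearly all libraries. Old macrophages held 18.6, 20.7, 4.15 and 0 normalized reads and old nonmacrophages 0, 0, 2.78 and 0, groups that overlap (log2 difference 2.29, SE 1.43, adjusted p = 0.317, limma). Young macrophage replicate 9 had no reads and replicate 15 had 281, which is 317 normalized reads, and none of the 4 young nonmacrophage libraries had any. The young difference missed the threshold in the limma fit (log2 difference 4.16, SE 1.75, adjusted p = 0.0866). It passed by edgeR on the recovered reads (adjusted p = 0.0214) and without replicate 9 (adjusted p = 0.000534), and in the authors' deposited table its adjusted p was 1.15e-08. Reads of replicate 15 alone carry it. Summed markers of mast cells and basophils stood at 0 and 5591 normalized reads in replicates 9 and 15, and their part was not tested. Of the 5 such markers measured, none was called higher in young macrophages, and Kit was lower (log2 difference -7.20, adjusted p = 0.00128, limma). In the macrophages of the nerve and wall these markers summed to 2531 and 3468, where Tlr9 was at 18.2 and 4.59.

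Counted by overlap, 8 of the 10 genes lay above all old nonmacrophages in every old macrophage library and 1 below, where 23.3% and 30.0% of all genes did so. In the young cochlea 6 lay above, where 10.5% of all genes did, and none below, where 18.6% did.

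**Figure D2:**
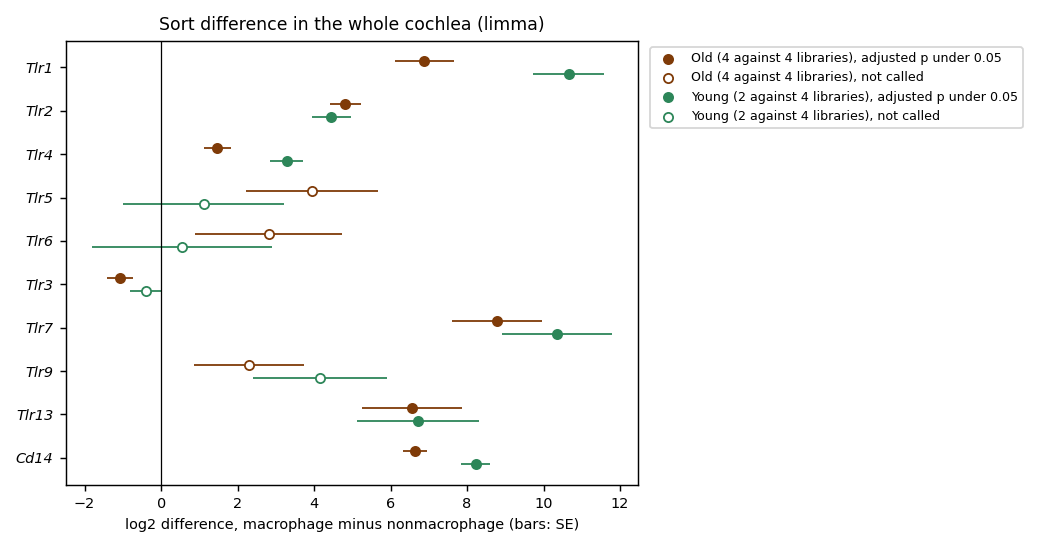
Limma log2 difference between macrophages and nonmacrophages for each gene in the old and young whole cochlea, with bars of 1 SE; filled points passed an adjusted p of 0.05. Tlr3 lies below 0 at both ages and was called only in old mice, and the wide bars of Tlr5, Tlr6 and Tlr9 go with libraries at 0.

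Levels of different genes were compared per kilobase of exon. In old macrophages the order was Cd14 (15486 ± 3244 normalized reads per kilobase, SD, n = 4), Tlr2 (3178 ± 666), Tlr13 (767 ± 203), Tlr7 (532 ± 98.4), Tlr4 (302 ± 67.7), Tlr1 (272 ± 78.7), Tlr3 (143 ± 33.8), Tlr5 (62.6 ± 17.8), Tlr6 (59.6 ± 16) and Tlr9 (3.12 ± 2.97). Within this order Tlr4 and Tlr1, and Tlr5 and Tlr6, lay within their spread of each other. Cd14, Tlr2 and Tlr13 held the first 3 places in the mean of all 4 macrophage groups, nerve and wall included. In old nonmacrophages the order began with Tlr3 (299.7 ± 63.1), followed by Cd14 (157 ± 38.8), Tlr2 (117 ± 48.2) and Tlr4 (108 ± 18.7), where Cd14 and Tlr2, and Tlr2 and Tlr4, lay within their spread of each other. Tlr3 was first in every nonmacrophage group, and in the unsorted cochlea it came second (282) after Cd14 (1293).

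The surface receptors made up most of the summed level of the 9 receptors per kilobase in whole-cochlea macrophages. Their share was 72.8% ± 1.51 (SD, n = 4; 71.1% to 74.8%) in old macrophages and 74.5% and 67.4% in young macrophage replicates 9 and 15. In old nonmacrophages it was 43.4% ± 2.99 (SD, n = 4), and in young nonmacrophages 53.9% ± 10.9 (SD, n = 4; 38.3% to 63.5%). For these 9 receptors all 6 macrophage shares lay above all 8 nonmacrophage shares. The measured relatives Tlr8 and Tlr12 were not in the sums. Tlr8, also an endosomal receptor gene, stood at 1.76 and 3976 normalized reads in young macrophage replicates 9 and 15. It stood at 4788 in nerve and 2947 in wall macrophages, and at 0 to 44.1 in young whole-cochlea nonmacrophages. Shares with these genes included were not computed. The makeup of each class differed as well. Tlr2 alone was 80.7% to 83.1% of the surface level in old macrophages, and Tlr3 alone was 92.2% to 97.7% of the endosomal level in old nonmacrophages against 7.36% to 11.6% in old macrophages. In the macrophages of the auditory nerve and lateral wall the surface share was 53.6% and 52.1%, with 1 library each. In the nonmacrophages of these tissues it was 49.6% in the nerve and 60.4% in the wall, so in the wall the macrophage share lay below the nonmacrophage share.

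**Figure D3:**
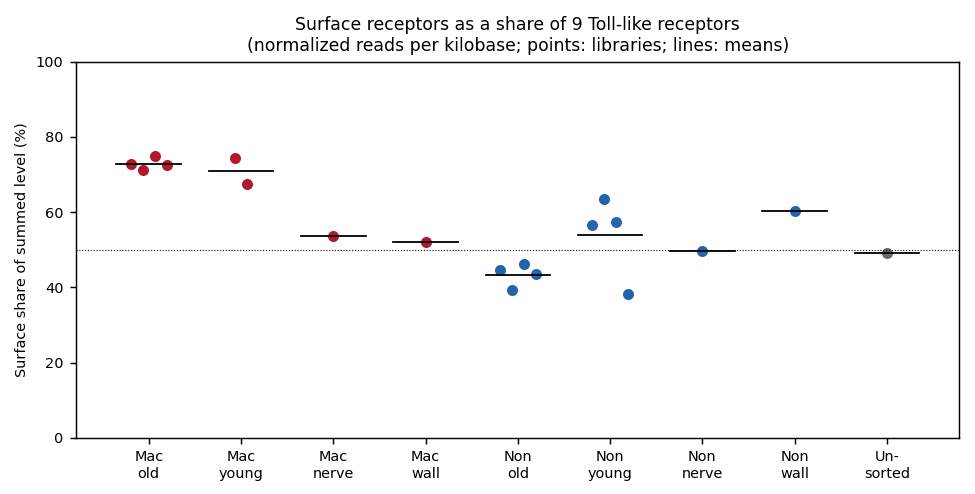
Share of the 5 surface receptors in the summed level of the 9 Toll-like receptors (normalized reads per kilobase, percent) by group, with a point per library and a line at the mean; the dotted line marks 50%. Whole-cochlea macrophages lie at 67.4% to 74.8%, and the nerve and wall macrophage libraries at 53.6% and 52.1%, the latter below the 60.4% of wall nonmacrophages.

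Genes around the receptors were followed as fixed lists, with all calls by limma. Their counts stand against 9.25% of all genes called higher and 9.36% lower in old macrophages, and 9.18% higher and 22.3% lower in young macrophages. Of 4 measured relatives of the receptors 3 were higher in old and 2 in young macrophages. These were led by Ly86 (log2 differences 6.89 and 9.43) and Cd180 (6.07 and 8.82), which form a receptor complex that resembles that of TLR4. Of 7 genes for ligand delivery 2 were higher at each age, the scavenger receptor genes Msr1 (6.93 and 11.34) and Cd36 (4.11 and 3.92), and 1 was lower, Vtn in old (-1.68) and Lbp in young mice (-6.49). Lbp encodes the serum protein that brings lipopolysaccharide to CD14.

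Of 13 genes for the transport and cleavage of the receptors 5 were higher in old and 6 in young macrophages, with none lower, where 9.25% and 9.18% of all genes were called higher. Unc93b1, the chaperone that takes the nucleic-acid receptors to the endosome, differed by 3.69 and 4.81, and Lgmn, a protease that can cleave them, by 3.02 and 4.22. The adaptors and kinases of the pathway had counts near or below the shares of all genes, apart from 3 of 12 adaptors in young macrophages. Of 12 adaptors and first kinases only Syk was called in old macrophages (4.86), and 3 were in young, led by Syk (6.08) and Pik3ap1 (6.55). The main adaptor gene Myd88 was not called, with overlapping old groups, 1132, 1901, 1339 and 1304 normalized reads in macrophages and 1147, 1213, 941 and 1697 in nonmacrophages. Of 13 downstream kinases none was called in old mice, while in young mice Map3k8 was higher (4.46) and Tab3 (-7.91) and Map3k7 (-2.77) were lower.

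Of 11 transcription factors of the pathway 3 were higher in old and 4 in young macrophages, among them Irf8 (3.83 in old) and Irf5 (4.84 and 6.98). Of 17 negative regulators 6 were higher in old, led by the cytokine gene Il10 (5.94) and Tnip3 (4.94), and 4 were higher and 1 lower in young. Of 13 inflammatory target genes 6 were higher and 1 lower in old, and 3 higher and 2 lower in young. Il1a (9.65 and 11.03) and Il1b (4.60 and 7.63) led the higher genes, and Lcn2 (-4.99 and -9.69) was lower. Of 11 interferon target genes none was called in old mice and only Oas1a in young mice (2.94). Of 13 other pattern recognition receptors 5 were higher and 1 lower at each age, led by the lectin genes Clec7a (6.74 and 6.89) and Clec4n (6.92 and 11.40).

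Neutrophils, which also carry several of these receptors, can be among the GFP-negative cells. Of 12 neutrophil markers 6 were lower and 1 higher in old macrophages, and their summed level was 2272 to 4450 normalized reads there against 2048 to 12365 in old nonmacrophages and 83.1 to 44185 in young nonmacrophages. Their part in the receptor levels of nonmacrophages was not tested. Of 12 dissociation response genes none was called in the old sorts, and 5 were higher and 1 lower in young macrophages.

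The next comparison asked how the receptors differ between old and young macrophages. Only Tlr4 was called, lower in old macrophages, where 5.57% of all genes were called lower and 24.1% higher (29.7% in all). Its 4 old values, 1923, 1704, 1951 and 1140.1 normalized reads, all lay below the 2 young values, 2998 and 5698 (log2 difference -1.33, SE 0.43, adjusted p = 0.0348, limma), a ratio of means of 0.386. In the authors' deposited table the fold change was -2.59 with an adjusted p of 0.00617. Leaving out old replicate 1 (adjusted p = 0.052), 7 (0.0625), 12 (0.0522) or 17 (0.0831) or young replicate 15 (0.172) ended the call, as did quantile normalization (0.0868), a common total (0.105), quality weights (0.758) and pooling of the nerve and wall libraries (0.228). Without young replicate 9, limma called Tlr4 and Tlr9 lower and Tlr5 higher, where 5.94% of all genes were called lower and 18.7% higher. Without young replicate 15 it called Tlr2 and Tlr6 higher, where 35.2% of all genes were.

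Tlr1 and Cd14 also lay lower in every old than in either young macrophage library. Their log2 differences of -1.39 (SE 0.94, adjusted p = 0.27) and -0.58 (SE 0.38, adjusted p = 0.267) did not pass, although Tlr1 did when only the 6 macrophage libraries were fitted (adjusted p = 0.0431, with 6.20% of all genes called lower). Together with Tlr4 these are 3 genes below without overlap and none above, where 13.4% of all genes lay below and 31.7% above. For the other 7 genes the young replicates bracketed or overlapped the old ones. Tlr2 differed by 0.65 (95% interval -0.44 to 1.73), Tlr3 by 0.22 (-0.68 to 1.12), Tlr7 by -0.15 (-3.27 to 2.96) and Tlr13 by 0.24 (-3.19 to 3.68). The intervals of Tlr5 (-1.13 to 7.97), Tlr6 (-2.53 to 7.65) and Tlr9 (-5.17 to 2.41) are many-fold wide and include 0. The ratios of old to young means for Tlr5 (0.815) and Tlr6 (0.328) were below 1 while their log2 differences (3.42 and 2.56) were above 0, the log scale giving more weight to the young library at 0.

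Markers of the macrophage core also differed with age. Of 17 such markers 4 were lower in old macrophages and none higher, with a median log2 difference of -1.79 against 0.88 over all genes, and averaged on the log2 scale they stood at 13.59 to 14.37 in old and at 15.37 and 15.89 in young macrophages. Summed T and NK cell markers were 56.6 to 154 normalized reads in old and 10909 and 3142 in young macrophage replicates 9 and 15. In old macrophages 5 of 10 T and NK cell markers were lower, and 4 of 8 fibroblast and matrix markers were higher. Of the other lists, 5 of 11 endothelial markers were lower. Higher were 5 of 9 Schwann cell and glia, 4 of 8 hair cell and 3 of 8 dendritic cell markers. Of all genes 5.57% were called lower and 24.1% higher. The part of these in the receptor differences was not tested. With the 6 macrophage libraries scaled to the same mean of the core markers, Tlr4 no longer differed past the threshold and its direction turned (0.25, SE 0.31, adjusted p = 0.499, limma). Relative to those markers 4 members were higher in old macrophages, where 56.7% of all genes were. They were Tlr2 (2.22, SE 0.46), Tlr3 (1.79, SE 0.49), Tlr7 (1.42, SE 0.29) and Cd14 (1.00, SE 0.24).

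**Figure D4:**
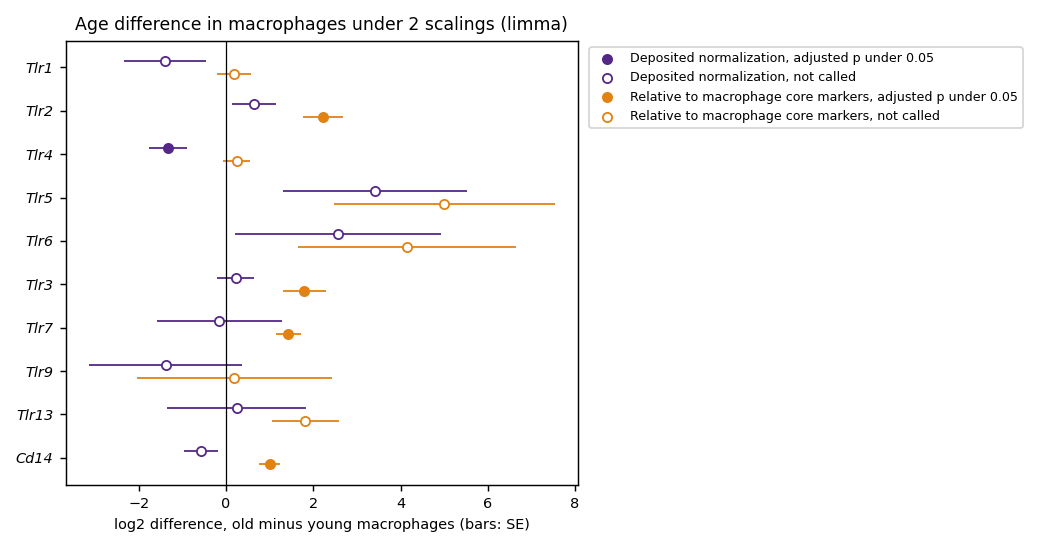
Limma log2 difference between old and young whole-cochlea macrophages for each gene under the deposited normalization (fit of 14 libraries) and relative to the macrophage core markers (fit of the 6 macrophage libraries), with bars of 1 SE; filled points passed an adjusted p of 0.05. Tlr4 was called lower at -1.33 under the first and stood at 0.25 under the second.

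The 2 single libraries of nerve and wall macrophages offered another set of young macrophages, although from other tissue. Against them 4 members were lower in old whole-cochlea macrophages, where 17.1% of all genes were. These were Tlr4 (-1.62, adjusted p = 0.0139), Tlr6 (-2.42, adjusted p = 0.00695), Tlr7 (-1.95, adjusted p = 0.00946) and Tlr13 (-2.34, adjusted p = 0.00283). Age, tissue and depth cannot be told apart in this contrast, and the setting was chosen after seeing the data.

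The young macrophage replicates themselves differed in these genes. Dissociation response genes averaged 12.44 on the log2 scale in replicate 9 and 14.08 in replicate 15, against 14.03 to 14.28 in old macrophages, and their part was not tested. Replicate 9 had no reads of Tlr6 and 1 read of the related endosomal receptor gene Tlr8 (1.76 normalized reads), whereas Tlr8 stood at 552, 1009, 876 and 561 in the old macrophages and 3976 in replicate 15. The adaptor genes Ticam1 and Ticam2, chosen here after their values were seen, also had no reads in replicate 9. In replicate 15 Ticam1 stood at 676 and Ticam2 at 1857 normalized reads. Replicate 15 in turn had no reads of Tlr5. Myd88 stood at 66.7 and 4011 normalized reads in replicates 9 and 15, on either side of the 1132 to 1901 of old macrophages.

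Of the pathway around the receptors in old against young macrophages, the ligand delivery list had 4 of 7 genes lower and 1 higher, and the transport list 4 of 13 lower and none higher. Ly96, whose product is needed by TLR4 for lipopolysaccharide, stood at 414, 422, 423 and 472 normalized reads in the 4 old macrophage libraries. In the 2 young ones it stood at 3344 and 2191, a log2 difference of -2.64. A like pattern stood in nonmacrophages, with Ly96 at 179 to 237 in old libraries and 2866, 651 and 1739 in young replicates 2, 5 and 6. The deeper young nonmacrophage replicate 14 held 256 and the unsorted young cochlea 161. The part of depth in the Ly96 difference was not tested. In old macrophages Vtn (-3.14), Ly86 (-2.74), Cnpy3 (-1.38), a chaperone of the receptors, and Lgmn (-1.43) were also lower, and Lbp was higher (3.51). These calls rest on the deposited normalization, under which 24.1% of all genes were called higher and 5.57% lower. The counts of higher genes that follow lie near or below that share, and nothing is read from them about the lists. Among adaptors Irak1 (0.68) and Traf6 (2.20) were higher and none lower, and 3 of 13 downstream kinases were higher, led by Tab3 (8.13) and Map3k7 (3.04). No transcription factor of 11 was called. Of 17 negative regulators 5 were higher, led by Il10 (5.94) and Tnip3 (6.56). The 5.94 of Il10 was also its sort difference in old mice. Its mean log2 value was thus equal in young macrophages and old nonmacrophages, as when both lack reads. The part of depth in it was not tested. Of 13 inflammatory targets 4 were higher, led by Acod1 (7.14) and Ptgs2 (6.96), and Il18 was lower (-2.03). Of 11 interferon targets only Oas1a was called, lower (-2.19). Of 13 other pattern recognition receptors Ifih1 (4.61) and Nlrp3 (4.93) were higher and Pglyrp1 (-4.12) and Tmem173 (-1.84) lower. Of 12 dissociation response genes 1 was higher, Hspa1b (6.65).

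In nonmacrophages none of the 10 genes was called between old and young mice by limma, where 1.64% of all genes were called higher and 0.0813% lower (1.72% in all), and 3 had an unadjusted p under 0.05. Those were Tlr1 (log2 difference 2.38, SE 0.77, adjusted p = 0.109), Tlr3 (log2 difference 0.88, SE 0.34, adjusted p = 0.153) and Cd14 (log2 difference 1.02, SE 0.31, adjusted p = 0.101). Only Cd14 was higher in every old library (231, 204, 298 and 353 normalized reads) than in every young one (87.1, 89.9, 189 and 191), where 12.0% of all genes were, and no member was lower in every old library, where 5.39% were. DESeq2 on the recovered reads called Cd14, Tlr1 and Tlr9, the last from 5 reads in 1 old library, where 2.83% of all genes were called higher. Without young nonmacrophage replicate 14, limma called Tlr1, Tlr3 and Cd14 higher in old mice (adjusted p = 0.018, 0.0182 and 0.0198), where 12.3% of all genes were. That library was the one young nonmacrophage library of a depth like that of the old ones, and it also stood with them in the dissociation response genes. Those averaged 14.00 to 14.84 on the log2 scale in old nonmacrophages, 12.10 to 12.33 in young replicates 2, 5 and 6, and 14.79 in replicate 14, and the part of depth and of these genes in the age difference was not tested.

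Whether the sort difference itself changed with age was tested as an interaction. None of the 10 genes passed by limma, where 7.94% of all genes did, and 3 had an unadjusted p under 0.05. Their interactions were -3.77 for Tlr1 (SE 1.21, adjusted p = 0.0799), -1.83 for Tlr4 (SE 0.56, adjusted p = 0.0662) and -1.60 for Cd14 (SE 0.50, adjusted p = 0.0703), each a smaller sort difference in old mice. edgeR called 0 (8.09% of all genes), and DESeq2 called 4, these 3 and Tlr9 (16.1%). Without young macrophage replicate 9 limma called Tlr4, Tlr5 and Tlr9, with 13.6% of all genes called. Without young macrophage replicate 15 it called Tlr2 and Tlr6, with 29.1% of all genes called. Leaving out young nonmacrophage replicate 14 brought calls of Tlr1 and Cd14 (9.10% of all genes), replicate 6 of Cd14 (8.97%) and replicate 2 of Tlr4 (9.97%), and leaving out old nonmacrophage replicate 10 a call of Tlr1 (6.07%).

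The auditory nerve, which holds the axons and glia of the hearing nerve, and the lateral wall, which holds the stria vascularis and spiral ligament, had 1 macrophage and 1 nonmacrophage library each. Differences there have no replicate check, and the intervals cover counting error only. In the nerve all 10 genes were at least 2-fold higher in the macrophage library on the log2(value + 1) scale, where 22.2% of all genes were higher by that much and 35.6% lower. Tlr4 stood at 7196 normalized reads in the macrophage and 22.4 in the nonmacrophage library, a ratio of 322 (95% interval 198 to 563). Tlr3 stood at 1840.4 and 638, a ratio of 2.89 (95% interval 2.59 to 3.23), and so ran against its direction in the old whole cochlea. Tlr1 had no reads in the nonmacrophage library and was at least 1276-fold higher against 3 reads there, and Tlr7 had 2 reads there, a ratio of 4681 (95% interval 1295 to 38657).

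In the lateral wall 9 genes were at least 2-fold higher in the macrophage library, where 18.5% of all genes were, and Tlr9 is among them with 3 reads against 0, at the counting limit. Tlr3 was lower, 539 against 1358 normalized reads, a ratio of 0.397 (95% interval 0.35 to 0.45), where 31.0% of all genes were at least 2-fold lower. Tlr4 stood at 3535 and 1332, a ratio of only 2.65 (95% interval 2.45 to 2.87). The nonmacrophage value of Tlr4 in the wall is thus the highest and that in the nerve the lowest of all 10 nonmacrophage libraries. Neutrophil markers summed to 142117 normalized reads in the wall and 56619 in the nerve nonmacrophage library, and their part in these values was not tested.

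Between the macrophages of nerve and wall, 8 of 10 genes were at least 2-fold higher in the nerve, where 23.2% of all genes were, and none was 2-fold lower, where 20.3% were. The ratios ran from 1.62 (95% interval 1.57 to 1.66) for Tlr13 and 1.81 (95% interval 1.76 to 1.87) for Tlr2, which stayed within 2-fold, up to 3.76 (95% interval 3.49 to 4.05) for Tlr1, the highest apart from Tlr9. Tlr4 was 2.04 (95% interval 1.94 to 2.14) times and Cd14 3 (95% interval 2.94 to 3.06) times as high in the nerve. The ratio of Tlr9 was 3.96 (95% interval 1.04 to 22.1) on 11 and 3 reads. The mean log2 value of the macrophage core markers was 16.21 in the nerve and 15.20 in the wall macrophage library, a gap in the same direction whose part was not tested. Nerve macrophages held the highest value of any library for Tlr1 (5354 normalized reads), Tlr2 (18650.0), Tlr4 (7196), Tlr6 (1718), Tlr7 (13092), Tlr13 (20642) and Cd14 (63769).

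**Figure D5:**
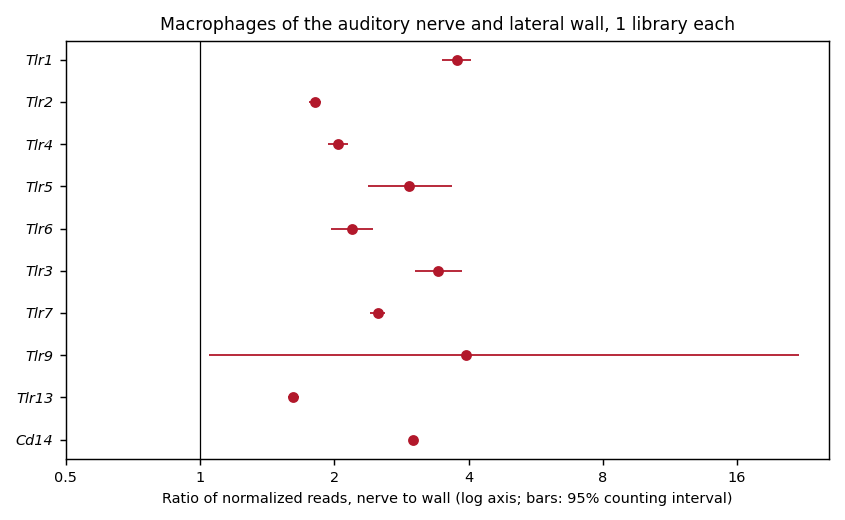
Ratio of normalized reads between the single auditory nerve and lateral wall macrophage libraries for each gene on a log axis, with 95% counting intervals. All ratios lie above 1, from 1.62 for Tlr13 to 3.96 for Tlr9, whose interval is the widest.

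The unsorted young cochlea had 1 library, which its replicate number ties to none of the sorted ones. Cd14 stood at 2240.0 normalized reads, Tlr3 at 1468, Tlr2 at 817, Tlr13 at 534 and Tlr4 at 414. Tlr5 stood at 130, Tlr6 at 65.7 and Tlr9 at 3.06. Cd14, Tlr1, Tlr2, Tlr7 and Tlr13 lay between the young macrophage and nonmacrophage libraries of the whole cochlea, whereas Tlr3 lay within the range of the nonmacrophages and Tlr4 did too.

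The likeness of each gene to others was described by Pearson's r of log2(value + 1) over the 19 libraries, in which libraries share their sort and depth. Tlr1 was most like Slc15a3 (r = 0.99), Clec4a3 (0.99) and P2ry13 (0.99), Tlr2 like Clec7a (0.96) and Csf1r (0.96), and Cd14 like C1qc (0.98), Ms4a6d (0.98) and Ccl4 (0.98). Tlr7 was most like Pou2f2 (0.98), Klra2 (0.98) and Cd84 (0.98), and Tlr13 like Nckap1l (0.99), Ly9 (0.97) and Fyb (0.96). The nearest genes of Tlr4 were Sap30 (0.89), Ptprj (0.89) and Pla2g7 (0.88), those of Tlr6 were P2ry10b (0.95), Rnf180 (0.93) and Chek2 (0.93), those of Tlr5 were Napg (0.90), Pspc1 (0.85) and Pex7 (0.82), and those of Tlr3 were Pla2g4c (0.86), Snx31 (0.84) and Taf1 (0.83). Tlr9 was most like Cd200r3 (0.87), Fcer1a (0.82) and Vnn3 (0.82), with young macrophage replicate 15 far above the others for Tlr9. Among the 10 genes, Tlr1, Tlr2, Tlr7, Tlr13 and Cd14 had pairwise r of 0.87 to 0.98, while Tlr3 had r of -0.30 to -0.02 with the others.

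Over the 8 macrophage libraries alone, which removes the sort, the pairs looked different. Tlr2 was closest to Tlr6 (r = 0.95) and Tlr13 (0.89), and only 0.34 with Cd14, while Tlr4 was closest to Tlr1 (0.89) and Cd14 (0.78). Of all genes, Tlr6 was most like Tlr8 (1.00), Qrich1 (1.00) and Zfp41 (1.00), Tlr13 like Tnfrsf1b (1.00), Wdr1 (1.00) and Fli1 (0.99), and Tlr2 like Mkrn1 (0.99), Arhgap22 (0.98) and C5ar2 (0.98). Cd14 was most like Ier2 (0.97), Nfkbia (0.96) and Nkap (0.95), and Tlr4 like Scpep1 (0.99), Map3k1 (0.99) and Scamp2 (0.99). Each r over 8 libraries rests on few points, and for Tlr6 the library at 0, young macrophage replicate 9, lies far from the rest. That library was also the lowest of the 8 for Tlr2 (2837 normalized reads) and Tlr13 (800.4). The r values of these 3 genes without it were not computed.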

How the data were processed

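Sequencing libraries from 19 mouse samples were used. The members and gene lists were chosen with earlier results of these data known, so no list is independent evidence. Per the labels' protocols, RNA of low quality was excluded and a second run was made for some samples. The build mm10 and the tools TopHat2, Partek and DESeq2 are listed, with no version, in the submitters' processing notes. Signal values were deposited as reads over a factor for each library, which the values themselves show. Whole reads were recovered (100% of values under 10000 reads within 0.1 read, at least 99.64% of all values in each library). From the authors' deposited table of 2 comparisons, fold changes (ratios) and adjusted p-values are quoted where named.

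Limma 3.58.1 (R 4.3.3) with mean-variance trend and robust variance was run on log2(value + 1), with a mean for each of 4 groups of sorted whole cochlea (14 libraries), for genes at 1 or more in at least 2 libraries. This scale understates changes of low genes. p-values are two-sided and Benjamini-Hochberg adjusted over all 18441 genes at 0.05, and they measure the spread between libraries within the groups. Whether a macrophage and a nonmacrophage library came from the same mouse is not in the labels, and the fit took all 14 libraries as independent. Each of the 10 genes is named in the sort comparisons of the whole cochlea and in old against young macrophages. In the other comparisons all 10 were counted and only some are named. From pathway lists the 2 called genes with the smallest adjusted p in each direction are named, and genes most like a member are the 3 with the highest r among genes with a mean of at least 20. Some genes that met these rules are left out of the text. Exon lengths came from GENCODE M21. Alternatives were edgeR 4.0.16 and DESeq2 1.42.0 on the recovered reads, other scalings, filters of 0 and 10, pseudocounts of 0.1 and 10, thinning to 20 M reads, depth classes split at 40 M reads, quality weights per group, other sets of libraries and leaving out each library. Replicate pairs did not agree within counting noise (a chi-square of 50.5 to 920.3 for each degree of freedom). Ratios of single libraries have exact (Clopper-Pearson) 95% intervals, which cover counting error only, as do floors of 3 reads.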

Additional observations from a re-analysis of the deposited data

Results flagged for a closer look

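In 6 of 30 groups of 4 libraries, 1 library stood far from the other 3 in a member's normalized reads. For normally distributed values chance alone gives about 1 in 20 such groups, and whether normalized reads follow that distribution was not tested. The young nonmacrophage group of Tlr9 was at 0 throughout and could not be flagged. For Tlr1, Tlr7 and Tlr9 the other 3 libraries were at 0, where any read stands apart and that rate does not apply. All 6 were groups of nonmacrophages. Only old macrophages and old and young nonmacrophages had 4 libraries, so most of the groups screened were nonmacrophages by design. Tlr1 (3.21) and Tlr7 (10.2) were read only in replicate 14 among the 4 young nonmacrophage libraries, which is also the deepest of them. Tlr6 stood at 312 in young nonmacrophage replicate 6, above the 0 to 39.0 of the others. Among old nonmacrophages, Tlr5 stood at 29.6 in replicate 19 against 14.8 to 15.6, Tlr9 at 2.78 in replicate 18 against 0, and Tlr13 at 94.3 in replicate 11 against 15.9 to 28.3.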

How the results depend on the processing

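No paired analysis was possible because each replicate number belongs to a single sample and pairs nothing. In the old sort 5 to 10 members were called under every setting, and in the young sort 4 to 8, except 1 with quality weights per group. Between old and young macrophages Tlr4 alone was called, and 0 members were called with quantile normalization, a common total, quality weights, or nerve and wall libraries pooled in, 2 when only the groups compared were fitted, 4 relative to the macrophage core markers, 4 against nerve and wall macrophages only, and 0 to 3 when 1 library was left out. DESeq2 called 3 members in nonmacrophages by age and 4 in the interaction, the fit without a trend called 1 in the interaction, and leaving out 1 library gave 0 to 3 in each. The cause of these changes was not tested. In the groups with replicates, the shares of surface receptors changed by less than 1 SD with coding length or the longest transcript. Single libraries have no SD. With coding length the share moved from 49.6% to 42.3% in nerve nonmacrophages and from 49.0% to 45.4% in the unsorted cochlea, and by less in the other single libraries. Apart from leaving out libraries, 594 member results kept direction and call, 26 gained and 17 lost a call, and 50 reversed, of which Tlr6 and Tlr13 relative to nerve and wall macrophages, and Tlr7 and Cd14 relative to the core markers, were past the threshold after the turn. With DESeq2 on the recovered reads, in the interaction Tlr2 (-0.098) and Tlr6 (-0.048), in macrophages by age Tlr5 (-0.32), Tlr6 (-1.66) and Tlr13 (-0.64) and in nonmacrophages by age Tlr5 (-0.89), Tlr6 (-1.61) and Tlr13 (-0.56) reversed. With nerve and wall libraries as the only young macrophages, in macrophages by age Tlr2 (-0.56), Tlr5 (-0.11), Tlr6 (-2.42), Tlr3 (-0.45) and Tlr13 (-2.34) reversed. With nerve and wall libraries pooled in, in the interaction Tlr2 (-0.048), in macrophages by age Tlr3 (-0.11) and Tlr13 (-1.05) and in nonmacrophages by age Tlr6 (-0.019) reversed. With edgeR on the recovered reads, in the interaction Tlr2 (-0.0085) and Tlr13 (0.0074), in macrophages by age Tlr5 (-0.21), Tlr6 (-1.58) and Tlr13 (-0.56) and in nonmacrophages by age Tlr5 (-0.89), Tlr6 (-1.61) and Tlr13 (-0.56) reversed. With libraries of at least 40 M reads only, in nonmacrophages by age Tlr5 (-0.68), Tlr6 (-0.37), Tlr3 (-0.0071), Tlr7 (-1.19) and Tlr13 (-0.29) reversed. With a pseudocount of 0.1, in the young sort Tlr6 (-0.26) reversed. With a pseudocount of 10, in the interaction Tlr13 (0.42) and in nonmacrophages by age Tlr5 (-0.062), Tlr6 (-0.32) and Tlr13 (-0.18) reversed. With quantile normalization, in the interaction Tlr13 (0.97), in macrophages by age Tlr3 (-0.14) and Cd14 (0.096) and in nonmacrophages by age Tlr2 (-0.044), Tlr5 (-0.80), Tlr6 (-0.91), Tlr9 (-0.51) and Tlr13 (-0.70) reversed. With a common total, in the interaction Tlr13 (0.058) and in macrophages by age Tlr7 (0.21) reversed. Relative to the macrophage core markers, in macrophages by age Tlr1 (0.18), Tlr4 (0.25), Tlr7 (1.42), Tlr9 (0.19) and Cd14 (1.00) reversed. Leaving out 1 library at a time reversed, with these ranges, in the interaction Tlr2 (-0.72 to 1.44), Tlr5 (-1.94 to 7.59), Tlr6 (-2.94 to 7.47), Tlr9 (-6.02 to 2.29) and Tlr13 (-1.92 to 1.60), in the young sort Tlr5 (-3.65 to 5.88) and Tlr6 (-4.66 to 5.75), in macrophages by age Tlr2 (-0.43 to 1.73), Tlr5 (-1.34 to 8.18), Tlr6 (-2.64 to 7.77), Tlr7 (-0.57 to 0.27), Tlr9 (-5.54 to 2.77) and Tlr13 (-1.51 to 2.00) and in nonmacrophages by age Tlr5 (-0.62 to 1.61), Tlr6 (-1.25 to 1.51) and Tlr13 (-1.16 to 1.07). Tlr9 in most libraries, and Tlr1 and Tlr7 in many nonmacrophage libraries, lay near or below 3 reads. Young macrophage replicate 15 had 281 reads of Tlr9 at 35.1 M reads, against 0 to 38 in the deeper old macrophage libraries. The part of depth in these counts was not tested. The 2 young macrophage libraries limit the age comparisons that include macrophages.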
